A study of Homo sapiens with 6 samples.

Results

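The hexosamine pathway makes UDP-N-acetylglucosamine (UDP-GlcNAc), the donor sugar for N-glycans, proteoglycans and O-GlcNAc, and 10 human genes of its synthesis, salvage, return and use on nuclear and cytosolic proteins were examined here. They were found by gene symbol in the platform annotation of an Affymetrix PrimeView array, keeping probe sets that name exactly 1 gene. Of the 10 genes, 8 had such a probe set (25 probe sets in all), among 18132 genes and 44988 probe sets of the whole array. GFPT2 and PGM3 had none and were not analysed here. The genes were chosen with their differences on these same arrays known, UAP1 and GNPNAT1 lying among the furthest falls, so the differences given for them are a description and support no test.

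The study compared 3 samples of cells carrying a lentiviral short hairpin RNA (shRNA) against SHCBP1, which encodes a partner of the adaptor SHC1, with 3 samples carrying a control shRNA. The cells are TPC-1, an established papillary thyroid carcinoma line, by the titles and the growth text, but the extraction text names DLD1, a colorectal carcinoma line. All samples shared RPMI1640 medium with serum, and the labels name no other shRNA sequence, clone or rescue, so effects of the hairpin itself and of losing SHCBP1 cannot be told apart. The series calls the samples independent without naming separate cultures, so p-values reflect only how these samples vary, and that variation may be technical.

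UDP-GlcNAc is built from fructose-6-phosphate in a short chain. GFPT1 or GFPT2 adds nitrogen from glutamine in the rate-limiting step, GNPNAT1 adds the acetyl group, PGM3 moves the phosphate and UAP1 joins the sugar to UTP. NAGK feeds salvaged N-acetylglucosamine into the chain, AMDHD2 removes the acetyl group again and so runs against GNPNAT1, OGT places single GlcNAc residues on serines and threonines of proteins, and OGA takes them off.

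Transcripts of the synthetic chain were lower in the SHCBP1 shRNA arrays at every step that was measured, but very unequally: 3.88-fold for UAP1, 3.52-fold for GNPNAT1 and 1.37-fold for GFPT1. AMDHD2, which undoes the GNPNAT1 step, was 1.22-fold higher and UAP1L1, the paralog of UAP1, 1.51-fold higher. OGT and OGA were lower by small amounts as means of their probe sets, 1.15-fold and 1.20-fold. Those probe sets split, from -0.52 to 0.11 log2 for OGT and from -0.72 to 0.13 log2 for OGA. NAGK showed no difference beyond its spread. In the fit over all genes 5 of the 8 were past the threshold lower and 2 higher, while 19.0% of all genes tested were called lower and 22.0% higher (limma, Benjamini-Hochberg adjusted p under 0.05). Nothing is read from these counts, since the same contrast chose the genes. Their median log2 difference was -0.23, against 0.02 for all genes.

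The values are taken as log2 and were centred on each probe set before deposit, so that 0 is the middle of the 6 arrays. They compare arrays for 1 gene and carry no level, so no gene can be called abundant or scarce, and markers of thyroid and of intestine cannot settle which cell line was used. Of 6 thyroid markers tested 1 was higher in the SHCBP1 shRNA arrays, and of 7 intestine markers 2 were higher and 1 lower. SHCBP1 had log2 values of -0.95, -0.76 and -0.72 in the SHCBP1 shRNA arrays and 0.72, 0.76 and 0.71 in the control shRNA arrays, a difference of -1.54 ± 0.06 log2 (SE). Poly-A RNA controls spiked into the samples gave 0.43 ± 0.04 log2 (SE) more signal with the SHCBP1 shRNA, and the 3′ to 5′ ratio of ACTB moved by -0.077 ± 0.018 log2 (SE). Scaling to those spike-ins lowers every difference by that 0.43, so every difference is relative to the other genes on the array. In whole-culture RNA, fewer cells that express a gene and less of its RNA per cell cannot be told apart.

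Promoter windows are shown side by side for the 3 chain genes that were lower and for AMDHD2, which moved the other way. Each is the RefSeq window (GRCh38.p14) of 250 bases before the annotated start to 50 after it, written on the strand of the gene, with motif matches in capitals. GNPNAT1 lies at chr14:52791558-52791857 on the minus strand, UAP1 at chr1:162561281-162561580 on the plus strand, GFPT1 at chr2:69387178-69387477 on the minus strand and AMDHD2 at chr16:2520121-2520420 on the plus strand.
GNPNAT1: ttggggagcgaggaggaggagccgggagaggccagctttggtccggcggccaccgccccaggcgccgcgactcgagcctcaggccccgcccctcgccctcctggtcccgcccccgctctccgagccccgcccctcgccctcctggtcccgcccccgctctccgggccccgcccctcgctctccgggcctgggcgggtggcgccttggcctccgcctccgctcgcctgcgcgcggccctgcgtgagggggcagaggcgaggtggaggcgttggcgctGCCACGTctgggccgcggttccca
UAP1: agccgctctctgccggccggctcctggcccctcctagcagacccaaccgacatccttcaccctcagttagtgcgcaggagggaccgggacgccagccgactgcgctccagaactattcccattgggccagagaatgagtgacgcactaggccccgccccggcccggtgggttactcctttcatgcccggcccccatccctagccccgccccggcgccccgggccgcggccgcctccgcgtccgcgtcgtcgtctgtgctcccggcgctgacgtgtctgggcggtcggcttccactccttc
GFPT1: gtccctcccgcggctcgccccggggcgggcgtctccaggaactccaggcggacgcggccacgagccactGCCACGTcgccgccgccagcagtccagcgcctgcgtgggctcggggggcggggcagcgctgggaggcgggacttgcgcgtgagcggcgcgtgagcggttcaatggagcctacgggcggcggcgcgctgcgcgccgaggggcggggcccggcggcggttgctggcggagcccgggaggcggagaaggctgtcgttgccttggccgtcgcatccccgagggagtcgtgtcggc
AMDHD2: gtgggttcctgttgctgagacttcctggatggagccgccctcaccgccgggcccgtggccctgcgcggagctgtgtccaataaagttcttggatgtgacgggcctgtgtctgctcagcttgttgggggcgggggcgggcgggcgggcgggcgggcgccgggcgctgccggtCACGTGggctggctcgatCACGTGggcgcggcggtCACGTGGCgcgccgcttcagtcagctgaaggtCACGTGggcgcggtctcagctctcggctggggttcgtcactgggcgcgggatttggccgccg

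Of the 10 genes, 9 (all but UAP1L1) have windows in the RefSeq table, 13 windows in all, counting alternative starts of UAP1, PGM3 and NAGK, some of which overlap. They were searched on both strands. TGATGNAA, the core of the composite element bound by ATF4, was in 0 of the 13 and in 3.62% of all 35116 windows. TGACGTGG, an element of XBP1, and TGACGTCA, the cyclic AMP response element, were also in 0 of the 13, against 0.729% and 1.85% of all windows. The E-box CACGTG, a site of MYC and of the lysosomal factor TFEB, was in 1 of the 13, that of AMDHD2, against 7.26% of all windows. AMDHD2 holds 4 copies, starting 79, 61, 44 and 12 bases before the start. Of all 35116 windows 5, this one included, hold 4 or more, a count taken up after these copies were seen.

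A further motif, GCCACGT, was added after the sequences had been seen; it contains CCACG, the 3′ end of the endoplasmic reticulum stress element. It was in windows of GFPT1 (first base 181 bases before the start), PGM3 (9 bases before), GNPNAT1 (position 27 after it) and AMDHD2 (43 bases before, on the minus strand, where it overlaps the third E-box). Of all windows, 3.22% hold it. UAP1 had no match to any of the 5 motifs in its 3 windows, which says only that these letters are not there. A match is a description of sequence and not a measured site.

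**Figure D1:**
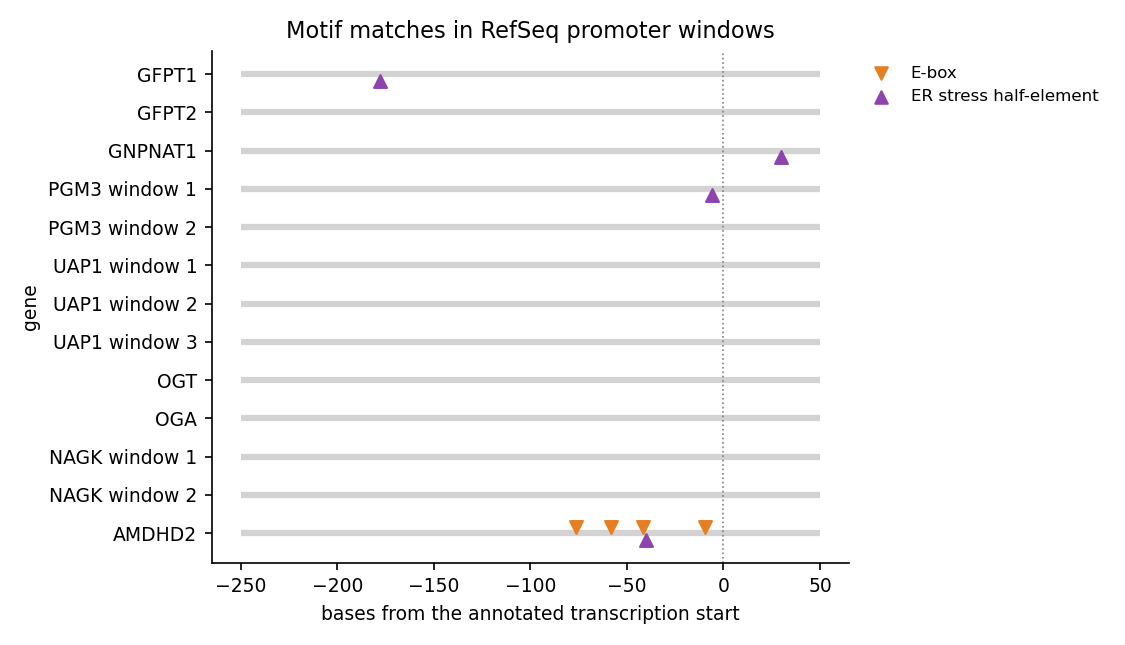
Motif matches in the RefSeq promoter windows of 9 genes, with distance from the annotated start in bases on the x axis and 1 grey bar per window. The 4 E-boxes sit in the AMDHD2 window, and the half-element is in the windows of GFPT1, GNPNAT1, AMDHD2 and 1 of the PGM3 windows.

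GFPT1 (Entrez Gene 2673), the entry enzyme, had centred log2 values of -0.26, -0.21 and -0.22 in the SHCBP1 shRNA arrays, against 0.21, 0.23 and 0.22 in the control shRNA arrays. The groups lay far apart relative to their spread. The difference was -0.46 ± 0.03 log2 (SE, 3 arrays in each group), with a 95% confidence interval of -0.53 to -0.38. All 5 of its probe sets were past the threshold in the same direction, from -0.61 to -0.29, and the 2 weakest and the 3 strongest formed separate clumps.

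GNPNAT1 (Entrez Gene 64841), the acetyltransferase, had log2 values of -0.90, -0.86 and -0.95 in the SHCBP1 shRNA arrays, against 0.90, 0.92 and 0.93 in the control shRNA arrays. The arrays of a group nearly coincide, with an SD of 0.043 log2 in the SHCBP1 shRNA arrays and 0.018 in the control shRNA arrays. The difference was -1.82 ± 0.04 log2 (SE, 95% confidence interval -1.90 to -1.73). Its 3 probe sets gave -1.96, -1.78 and -1.71, so the size does not hang on 1 of them. Counted from the lowest difference, it ranked 12 of the 18132 genes.

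UAP1 (Entrez Gene 6675), the pyrophosphorylase that completes UDP-GlcNAc, had log2 values of -1.17, -0.86 and -0.90 in the SHCBP1 shRNA arrays, against 0.86, 0.90 and 1.18 in the control shRNA arrays. SHCBP1 shRNA replicate 1 was the lowest array and control shRNA replicate 3 the highest, and the groups do not meet. The difference was -1.96 ± 0.11 log2 (SE, 95% confidence interval -2.21 to -1.70), with an SD of 0.17 log2 in each group. It rests on 1 probe set, and its interval spans that of GNPNAT1, so the order of these 2 genes is not resolved.

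UAP1L1 (Entrez Gene 91373), a paralog of UAP1 with a less settled function, went the other way. It had log2 values of 0.28, 0.46 and 0.19 in the SHCBP1 shRNA arrays, against -0.19, -0.19 and -0.48 in the control shRNA arrays. The difference was 0.59 ± 0.10 log2 (SE, 95% confidence interval 0.36 to 0.82), again on 1 probe set. Scaled to the spike-in controls it was 0.16 ± 0.10 log2 (SE) and no longer past the threshold. Within an array the spike-in scaling cancels: UAP1L1 minus UAP1 was 1.45, 1.32 and 1.08 log2 in the SHCBP1 shRNA arrays and -1.05, -1.09 and -1.66 log2 in the control shRNA arrays. These centred differences show that the paralogs changed unequally and say nothing of which is more abundant.

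**Figure D2:**
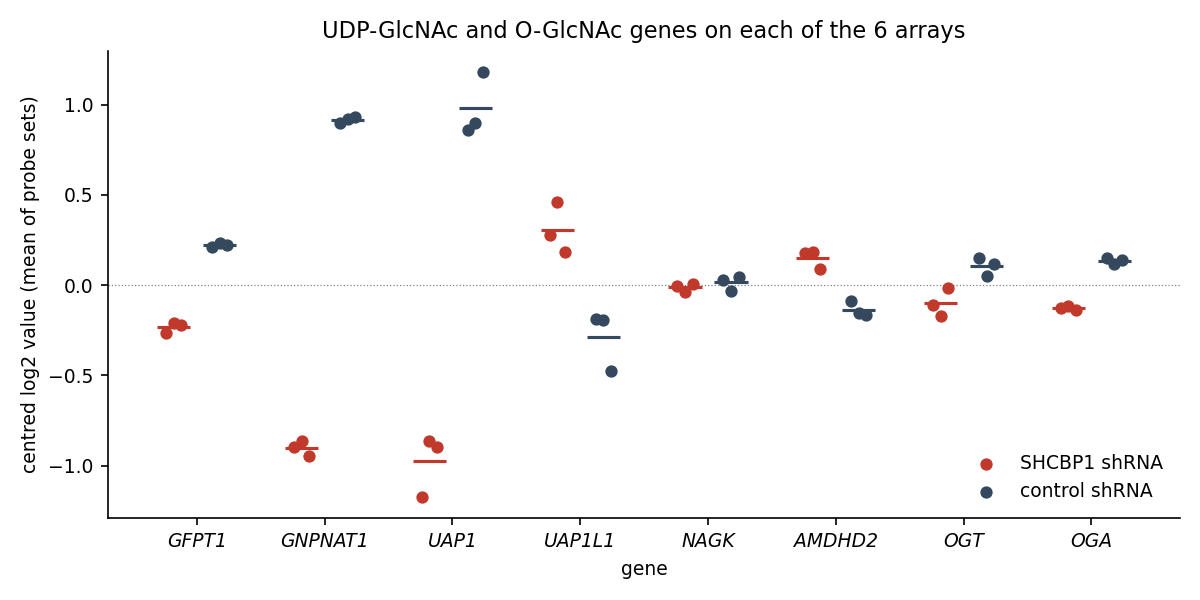
Centred log2 value (mean of a gene's probe sets) of the 8 measured genes on each array, SHCBP1 shRNA left of control shRNA, with 1 point per array and a line at the group mean. UAP1 and GNPNAT1 separate the groups by -1.96 and -1.82 log2, GFPT1 by -0.46, and the arrays of NAGK overlap.

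NAGK (Entrez Gene 55577), the salvage kinase, had log2 values of -0.0054, -0.037 and 0.0054 in the SHCBP1 shRNA arrays, against 0.029, -0.031 and 0.046 in the control shRNA arrays. The groups overlap. The difference was -0.027 ± 0.036 log2 (SE, 95% confidence interval -0.11 to 0.057) on 1 probe set. Centred values do not show whether that probe set reads above background, so the interval bounds its signal and not the RNA. With spike-in scaling NAGK was at -0.46 log2, past the threshold lower and close to the shift itself.

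AMDHD2 (Entrez Gene 51005), the deacetylase whose promoter carries the 4 E-boxes, had log2 values of 0.18, 0.18 and 0.087 in the SHCBP1 shRNA arrays, against -0.086, -0.16 and -0.16 in the control shRNA arrays. The third SHCBP1 shRNA array and the first control shRNA array came closest without meeting. The difference was 0.29 ± 0.04 log2 (SE, 95% confidence interval 0.19 to 0.38), and it flips to -0.15 ± 0.06 log2 (SE) with spike-in scaling. All 4 probe sets were past the threshold higher, from 0.23 to 0.35, though 3 and not 5 probe sets of the whole set were higher without control shRNA replicate 2.

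OGT (Entrez Gene 8473), the O-GlcNAc transferase, had log2 values of -0.11, -0.17 and -0.017 in the SHCBP1 shRNA arrays, against 0.15, 0.052 and 0.12 in the control shRNA arrays. The mean difference was -0.21 ± 0.05 log2 (SE), but its 5 probe sets split. Those at -0.52 and -0.39 were past the threshold, and those at -0.19, -0.044 and 0.11 were not. With only probe sets of the plain _at type the gene was at -0.21 log2 and not past the threshold.

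OGA (Entrez Gene 10724), the O-GlcNAc hydrolase, had log2 values of -0.13, -0.12 and -0.14 in the SHCBP1 shRNA arrays, against 0.15, 0.12 and 0.14 in the control shRNA arrays. These tight means, -0.26 ± 0.03 log2 apart (SE), hide a sharper split between probe sets than that of OGT. The probe sets 11755972_a_at and 11715707_a_at differed by -0.72 and -0.61, while 11715706_x_at, 11715705_a_at and 11759573_at gave -0.11, -0.0019 and 0.13 and were not past the threshold. Taking the median of the probe sets gave -0.12 log2, not past the threshold, and the single plain _at probe set turned the sign, at 0.13 log2. Where in the transcript each probe set lies is not given in the sources used here.

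On the array 11755972_a_at read -0.35, -0.34 and -0.39 log2 in the SHCBP1 shRNA arrays, against 0.39, 0.35 and 0.34 in the control shRNA arrays. By contrast 11715705_a_at read 0.060, -0.00061 and -0.072 log2 in the SHCBP1 shRNA arrays, against 0.00061, -0.029 and 0.021 in the control shRNA arrays. In the first the groups lie wide apart and in the second they overlap, although the annotation gives both to OGA. Whether OGT and OGA pass the threshold therefore depends on which probe sets stand for them, while every probe set of GFPT1, GNPNAT1 and AMDHD2 was past it in 1 direction. The size for GFPT1 does depend on them, at -0.38 log2 with only plain _at probe sets and -0.50 log2 with the median. Over the 25 probe sets, 13 were past the threshold lower, 5 higher and 7 not, against 18.2% lower and 20.3% higher among all probe sets.

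**Figure D3:**
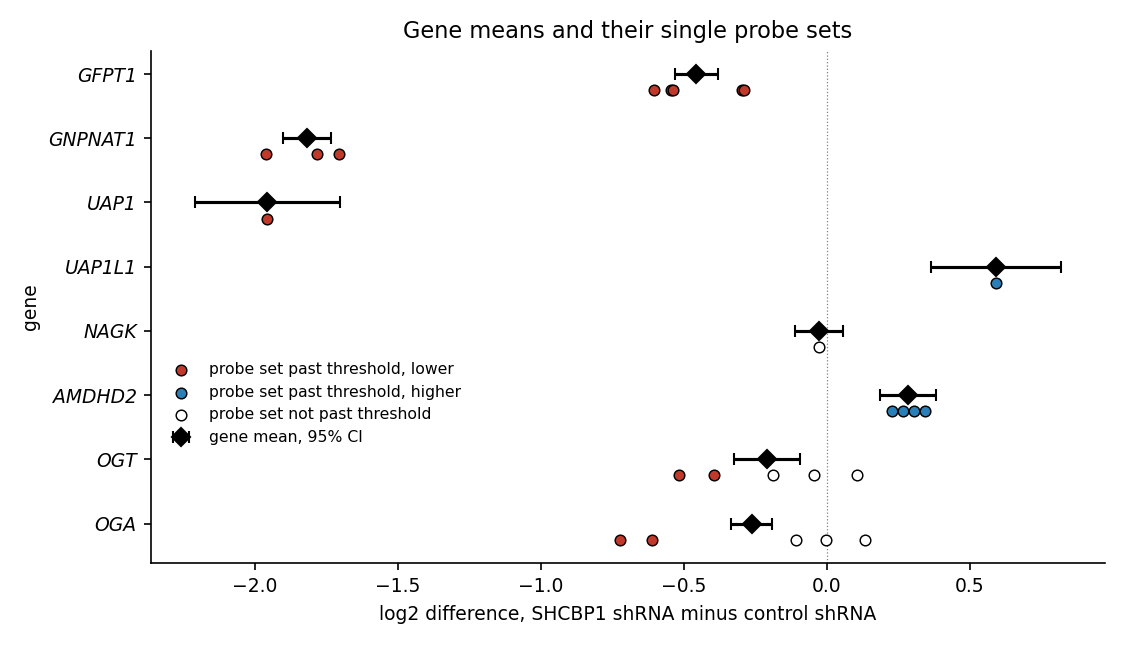
Log2 difference (SHCBP1 shRNA minus control shRNA) of each gene mean with its 95% confidence interval (black diamond) and of its single probe sets (circles, filled where past the threshold). Probe sets of GNPNAT1 run from -1.96 to -1.71 and those of GFPT1 from -0.61 to -0.29, in 2 clumps, while those of OGA run from -0.72 to 0.13 and those of OGT from -0.52 to 0.11.

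Genes that feed, use or carry nucleotide sugars, partners of OGT and reported inducers of GFPT1 or GFPT2 were compared in 6 lists. The lists hold 64 genes, of which 57 were tested. Across them 22 fell and 20 rose, 38.6% and 35.1% of those tested, while 19.0% of all genes fell and 22.0% rose. No list had every tested gene called lower, though all 5 tested inducers of GFPT1 or GFPT2 had differences below 0. The supply of substrates held 7 falls and 3 rises among 13 tested (53.8% and 23.1%), with a median log2 difference of -0.11 against 0.02 for all genes. SLC2A1, a glucose transporter, fell by 1.13 ± 0.05 log2 (SE), the hexokinase gene HK2 by 0.85 ± 0.04 and the glutamine carrier gene SLC1A5 by 0.54 ± 0.03. CMPK1, a kinase on the way to UTP, rose by 0.62 ± 0.05. The 2 probe sets of HK2 differed in size, at -1.23 and -0.48, and the 3 of CMPK1 ranged from 0.42 to 0.88. The 3 rises shrank to 1 without SHCBP1 shRNA replicate 1, without SHCBP1 shRNA replicate 2, without control shRNA replicate 1 and without control shRNA replicate 2, each on its own, and also with arrays centred on the gene median.

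Genes that turn UDP-GlcNAc into sialic acid or return amino sugars to glycolysis showed 5 rises and 1 fall among 8 tested (62.5% and 12.5%), with a median of 0.18 log2. GNE, which commits UDP-GlcNAc to sialic acid, fell by 0.42 ± 0.05 log2 (SE). GNPDA1, which turns glucosamine-6-phosphate back to fructose-6-phosphate, rose by 0.40 ± 0.04 log2 (SE). The sialic acid lyase gene NPL rose by 0.32 ± 0.06 and CMAS, which activates sialic acid, by 0.28 ± 0.03. With spike-in scaling these 3 were at -0.038, -0.11 and -0.16 log2, and only CMAS was past the threshold, lower.

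Among 6 transporters of nucleotide sugars 3 fell and 2 rose (50% and 33.3%), with a median of -0.13 log2. SLC35D2 fell by 0.92 ± 0.07 log2 (SE) on 1 probe set, and the CMP-sialic acid carrier gene SLC35A1 fell by 0.34 ± 0.05. SLC35A3 was also called lower, at -0.30 ± 0.04 log2 (SE), but its 2 probe sets split, at -0.61 and 0.017. SLC35B4 rose by 0.42 ± 0.04 and the UDP-galactose carrier gene SLC35A2 by 0.31 ± 0.03 log2 (SE). With spike-in scaling SLC35B4 was at -0.013 and SLC35A2 at -0.12 log2, neither past the threshold. The probe sets of SLC35B4 ranged from 0.0092 to 0.72, those of SLC35A2 from 0.023 to 0.51 and those of SLC35A1 from -0.51 to -0.084. With only plain _at probe sets SLC35A1 was at -0.084 and SLC35A2 at 0.023 log2, and neither was past the threshold.

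Enzymes that consume UDP-GlcNAc moved both ways, with 6 falls and 8 rises among 18 tested (33.3% and 44.4%) and a median of 0.0088 log2. EXT2 and EXT1, which together polymerise heparan sulfate, went apart. EXT2 fell by 0.94 ± 0.04 log2 (SE) over 4 probe sets and EXT1 rose by 0.38 ± 0.05 on 1 probe set. With spike-in scaling EXT1 was at -0.058 log2 and not past the threshold. GCNT1, which branches mucin-type glycans, fell by 0.45 ± 0.07 log2 (SE). MGAT4A, which branches N-glycans, rose by 0.52 ± 0.03 log2 (SE) and was at 0.082 and not past the threshold with spike-in scaling.

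Of 7 tested partners of OGT, 1 fell and 2 rose (14.3% and 28.6%), with a median of 0.08 log2. The co-repressor gene SIN3A fell by 0.45 ± 0.03 log2 (SE). The mitochondrial adaptor gene TRAK2 rose by 0.23 ± 0.04 and the 5-methylcytosine dioxygenase gene TET3 by 0.26 ± 0.05 log2 (SE). The 2 probe sets of TET3 split, at -0.0038 and 0.52. With spike-in scaling TRAK2 turned to -0.21 and TET3 to -0.18 log2, both past the threshold lower. Without SHCBP1 shRNA replicate 2 the count of falls was 2.

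Of 5 transcription factors reported to induce GFPT1 or GFPT2, 4 fell and 0 rose (80% and 0%), with a median of -0.37 log2. MYC fell by 1.21 ± 0.05 log2 (SE), XBP1, a factor of the unfolded protein response, by 0.72 ± 0.04, ATF4, a factor of the amino acid response, by 0.37 ± 0.03, and SP1 by 0.21 ± 0.05. The first 3 rest on 1 probe set each, and the probe sets of SP1 ranged from -0.48 to 0.11. With only plain _at probe sets SP1 was at -0.19 log2 and not past the threshold. NR4A1 was at -0.066 and did not pass (limma, Benjamini-Hochberg adjusted p = 0.137). The list was chosen with earlier results of these data known, and transcript values do not measure the activity of a factor. The part of these factors in the lower UDP-GlcNAc transcripts was not tested.

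**Figure D4:**
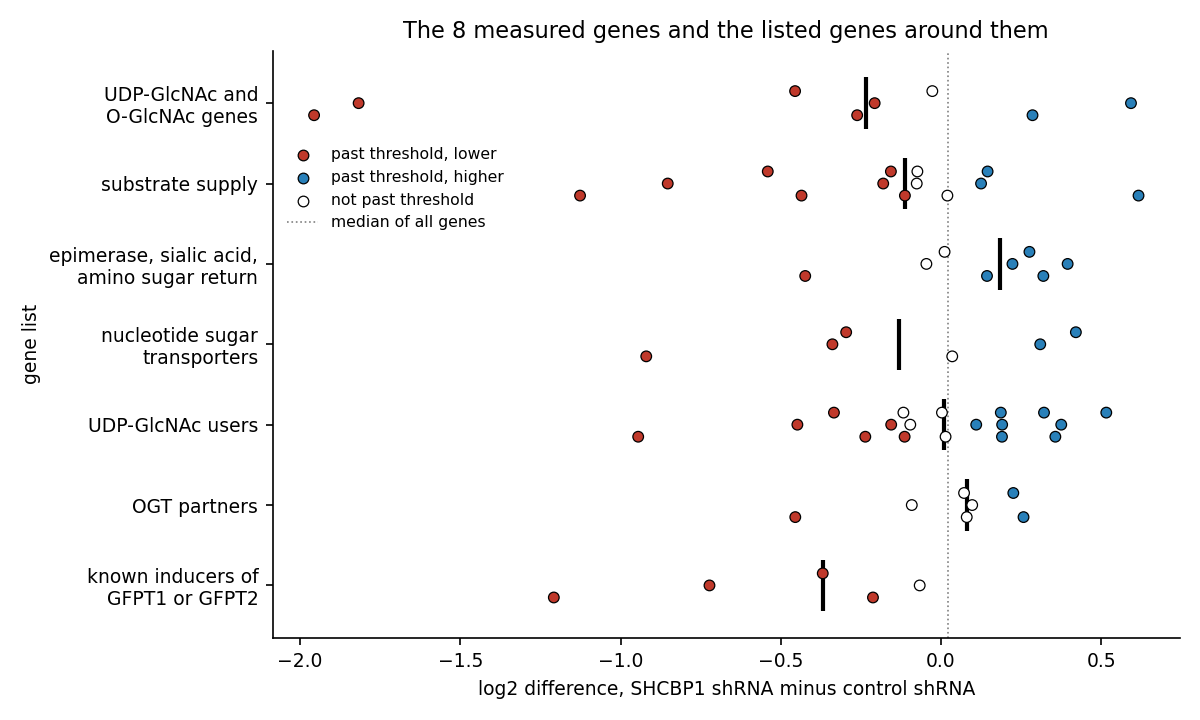
Log2 difference (SHCBP1 shRNA minus control shRNA) of the 8 measured genes and of the tested genes in 6 lists, 1 circle per gene, coloured by limma's call, with a black bar at each list's median and a dotted line at the median of all genes (0.02). UAP1 and GNPNAT1, which were chosen with their falls known, lie below every listed gene, the lowest of which is MYC at -1.21.

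By distance over the 6 arrays (the root of summed squared differences in centred log2), the 5 genes outside the set nearest to UAP1 were PDCD4 (0.26), FAM210B (0.31), PSAT1 (0.35), APLP2 (0.35) and DDIT4 (0.39). GNPNAT1, a gene of the set, was 0.38 log2 from UAP1, nearer than DDIT4. The 5 outside the set nearest to GNPNAT1 were APLP2 (0.09), PARK7 (0.11), PAICS (0.11), PLPBP (0.12) and TXNIP (0.13). With arrays of 2 groups, this likeness is mostly a like difference between the groups, from -1.99 log2 for PSAT1 to -1.76 log2 for PLPBP. The distances to UAP1 are wider because its arrays vary more within a group.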

How the data were processed

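Each of 6 RNA samples was labelled with biotin and hybridised to 1 array. Samples were grouped, and numbered, by their titles. The deposited values are taken as log2, the scale of RMA, which the authors used per the submitters' processing notes. The sources used here give neither its version nor the log base. Every probe set has a median of 0 over the 6 arrays, so a centring step followed RMA, and a filter on dim genes could not be applied.

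A gene's value is the mean of its probe sets that name 1 gene. SHCBP1 shRNA arrays were set against control shRNA arrays without pairing by limma 3.58.1 (lmFit, eBayes; R 4.3.3), and p-values were adjusted by Benjamini-Hochberg over 18132 genes, or over 44988 probe sets, with a threshold of 0.05. Errors of genes and probe sets are moderated standard errors. Those of the spike-in signal and of the ACTB ratio come from the variances of the groups, without moderation. The code was tested on simulated data. Having only 3 arrays per group limits the precision.

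The genes, lists and alternatives were chosen with earlier results of these data known. The text names SHCBP1, the 10 genes, up to 4 of the largest called changes per list (up to 2 largest uncalled ones where none was called) and the 5 genes outside the set nearest to UAP1 and GNPNAT1. NR4A1 and SLC35A3 were named after their values were seen. Alternatives were repeated quantile normalization, centred arrays, spike-in scaling, array weights, robust moderation, the replicate block, plain _at probe sets, the median of probe sets and leaving out each array. Protein sequences were not used here. Same-numbered arrays did not deviate together (correlations 0.02, -0.05 and 0.07).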

Additional observations from a re-analysis of the deposited data

How the results depend on the processing

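GNPNAT1, UAP1 and GFPT1 kept their direction and stayed past the threshold in every alternative that could be run (UAP1 has no plain _at probe set). Without the spike-in scaling their ranges were -1.87 to -1.64, -2.02 to -1.80 and -0.50 to -0.38 log2. With the replicate block, whose numbers did not pair the arrays, 5 of the 8 genes were lower and 2 higher as before, and 3309 genes were lower and 3783 higher over the array. Scaling to the poly-A spike-ins gave 16268 genes lower and 441 higher over the array, 7 of the 8 genes lower (NAGK among them) and 0 higher, 21 of their probe sets lower and 0 higher, and 48 listed genes lower and 1 higher, because it subtracts the same 0.43 log2 from each. Of the 20 listed genes called higher, 18 turned below 0 under it. Among the named genes, AMDHD2 (-0.15), CMAS (-0.16), TET3 (-0.18) and TRAK2 (-0.21) went from a called rise to past the threshold lower. EXT1 (-0.058), GNPDA1 (-0.038), NPL (-0.11), SLC35A2 (-0.12) and SLC35B4 (-0.013) lost their called rise, lying below 0 but not past the threshold. Keeping only plain _at probe sets leaves 8354 genes, 5 of the 8 and 22 listed genes. Then 905 genes were lower and 995 higher, 2 of the 5 lower and 1 higher, 6 of their probe sets lower and 1 higher, 2 listed genes lower and 7 higher, and OGA turned to 0.13. Leaving out 1 array at a time, the probe sets of the 8 genes called higher numbered 3 to 5. Centred values carry no signal over background, so what brightness limits could not be examined.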

Other observations

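The chromosomal neighbours of the 8 measured genes were taken as the nearest tested protein-coding gene on each side (RefSeq, GRCh38.p14), a set added after the values were seen. Of 16 such neighbours 5 fell, 3 rose and 8 did not pass limma's test, so 31.3% fell and 18.8% rose, against 19.0% and 22.0% of all genes. Beside UAP1 on chromosome 1, the kinase gene UHMK1 fell by 0.63 ± 0.03 log2 (SE) and the collagen receptor gene DDR2 was at -0.04 ± 0.04. Beside GNPNAT1 on chromosome 14, STYX fell by 0.18 ± 0.05 log2 (SE) and the adhesion gene FERMT2 was at 0.024 ± 0.067. The largest difference among the neighbours was that of TEX261 on chromosome 2, which rose by 0.99 ± 0.05 log2 (SE), beside NAGK, which showed no difference beyond its spread. Next to AMDHD2 on chromosome 16, ATP6V0C, a subunit of the lysosomal proton pump, rose by 0.18 ± 0.03 log2 (SE), less than the spike-in shift.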
